A study of Mus musculus with 2 samples.

Results

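The 7 genes described here are Bgn, Dcn, Lum, Fmod, Ogn, Aspn and Prelp, small leucine-rich proteoglycans that were chosen by name out of 33757 features of the count table. Bgn was chosen because it was very abundant and lower in cells with bright Venus, so its own levels over the gates are given as a description without a test, and the other 6 genes were examined for the same pattern. Another 9 genes of the family were in the table and are used for comparison. The cells were NIH3T3-Rev-VNP1-H2B-iRFP, mouse NIH3T3 fibroblasts that carry a Venus reporter of Nr1d1, a repressor in the circadian clock, and a nuclear marker, H2B-iRFP, in which a histone is joined to a near-infrared protein. The labels do not say whether the line is 1 clone. All cells came from unsynchronized cultures at 95% confluency, reached about 5 days after seeding. No differently treated, synchronized or genetically different group was part of the comparison. Single cells were sorted from 4 gates of Venus, gate 1 being the dimmest and gate 4 the brightest, and plate 1 held the high and plate 2 the low H2B-iRFP sort, with 384 cells each.

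Small leucine-rich proteoglycans are secreted proteins with a core of leucine-rich repeats, many of which carry glycosaminoglycan chains. They bind collagen and regulate how collagen fibrils assemble, and several of them bind TGF-beta in the matrix. Biglycan (Bgn) and decorin (Dcn) carry chondroitin or dermatan sulfate chains, and asporin (Aspn) is their close relative. Lumican (Lum) and fibromodulin (Fmod) carry keratan sulfate, and osteoglycin (Ogn) and Prelp are further members of the family. Connective tissue fibroblasts are known as a main source of them.

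Several of these genes lie side by side, by the order of genes in RefSeq. Dcn is next to Lum on chromosome 10, Ecm2, Aspn, Omd and Ogn follow each other on chromosome 13, Prelp is next to Fmod on chromosome 1, and Bgn stands apart from the others on chromosome X. The 250 bases before the RefSeq start are shown for Bgn, whose level followed the gates, and for Aspn and Ogn, the neighbours that varied most closely together between cells. In build GRCm38.p6 they lie on the plus strand at chrX:73483351-73483600, chr13:49544193-49544442 and chr13:49607765-49608014, and capitals mark the matches found on either strand.
Bgn: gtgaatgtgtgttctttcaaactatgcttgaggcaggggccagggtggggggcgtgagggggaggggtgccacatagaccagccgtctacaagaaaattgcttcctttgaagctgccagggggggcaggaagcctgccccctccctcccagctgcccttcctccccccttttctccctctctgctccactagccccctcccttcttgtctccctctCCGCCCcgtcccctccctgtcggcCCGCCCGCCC
Aspn: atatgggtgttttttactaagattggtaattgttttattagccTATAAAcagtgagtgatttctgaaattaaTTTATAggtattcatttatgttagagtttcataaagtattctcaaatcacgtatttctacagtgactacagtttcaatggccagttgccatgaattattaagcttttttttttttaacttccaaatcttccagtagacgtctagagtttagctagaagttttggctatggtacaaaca
Ogn: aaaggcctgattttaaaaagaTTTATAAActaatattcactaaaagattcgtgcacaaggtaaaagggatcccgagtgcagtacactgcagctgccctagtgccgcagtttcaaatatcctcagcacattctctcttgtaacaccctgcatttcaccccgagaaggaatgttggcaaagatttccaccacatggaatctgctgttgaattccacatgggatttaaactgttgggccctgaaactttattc

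Windows were found for 5 of the 7 genes, including Prelp and Fmod. Bgn had 64.4% G and C and 3 matches to the GC box GGGCGG, all on the minus strand and 2 of them overlapping, a motif that 32.7% of 32851 windows of this length hold. Aspn, with 30.0% G and C, had 2 matches to TATAAA, and Ogn, with 42.0%, had 2 that overlap, against 12.4% of windows with any. The E-box CACGTG (6.02% of windows), the D-box TTATGTAA (0.819%), the Rev-erb and ROR half-site AGGTCA (14.0%), the SMAD element GTCTAGAC (0.167%) and the AP-1 site TGACTCA (4.46%) had no match in any of the 5 windows, which says only that these letters are not there.

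Of 768 cells, 762 passed filters on genes detected, depth and mitochondrial share, with 151173 to 1618022 counts each. The 8 sums of cells, 1 for each plate and gate, held 76042157 to 86612194 counts. All 10 fibroblast markers were at 1 CPM (count per 1000000 counts) or more in the pooled cells, and their summed level was 20795 to 27378 CPM over the 8 sums. Endothelial markers summed to 0.514 to 2.11 CPM, immune markers to 6.36 to 12.7 CPM and epithelial markers to 3.38 to 7.74 CPM. Of the chondrocyte, osteoblast and tendon markers, 3 were at 1 CPM or more, Sox9 (448 CPM), Runx2 (20.9) and Mkx (9.72), while Acan, Sp7 and Alpl were near 0. Lpl of the adipocyte list was at 193 CPM with Adipoq, Plin1 and Fabp4 near 0, and Acta2 of the smooth muscle list was at 154 CPM with Myh11 near 0. Nr1d1, which the reporter follows, rose by 1.38 ± 0.02 log2 per gate (SE, 8 sums, edgeR quasi-likelihood test, adjusted p = 8.0e-08). Each gate filled its own block of well columns, the same block on plate 1 as on plate 2, so gate and place on the plate cannot be told apart, and neither can plate and H2B-iRFP sort. Counts are PCR reads for which no molecular identifiers were stated, so intervals cover counting error only, and p-values measure the spread between sums of cells from 2 plates of 1 line. In a sum of cells, fewer cells with a transcript and less of it per cell cannot be told apart, so values per cell follow.

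Bgn was the most abundant gene of the family by far. Per kilobase of exon it stood at 512 ± 217 CPM per kb (SD, 8 sums), which was 12.4 times the next gene, Aspn, at 41.3 ± 17.0 (28.1 times with the length of the longest transcript). Ogn followed at 20.8 ± 6.54 and Prelp at 20.4 ± 6.43 CPM per kb, levels that did not differ beyond their spread. Dcn stood at 8.94 ± 3.78 CPM per kb, above Tsku at 6.50 ± 0.715 and Podnl1 at 5.82 ± 1.12 by less than its own spread. Omd had 3.90 ± 0.384, Fmod 0.942 ± 0.540, Chadl 0.136 ± 0.049 and Lum 0.098 ± 0.063 CPM per kb, with Ecm2 and Podn below them. Kera, Chad and Nyx had 10, 3 and 1 counts in all, each from 1 cell.

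Bgn was lower at each brighter gate on both plates. In plate 1 it stood at 5313, 4059, 2808 and 1829 CPM from gate 1 to gate 4. In plate 2 the values were 4140, 3324, 1899 and 1631 CPM. The lowest of the gate 1 and gate 2 sums was above the highest of the gate 3 and gate 4 sums. The slope was -0.52 ± 0.03 log2 per gate, with -0.54 on plate 1 alone and -0.49 on plate 2 alone, and gate 1 was 2.90-fold and 2.54-fold above gate 4. Of 6828 genes with a mean of at least 20 CPM, 4 had a slope at or below that of Bgn, itself included. Since Bgn was chosen for this fall, its place among them is a description and lends the fall no support.

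**Figure D1:**
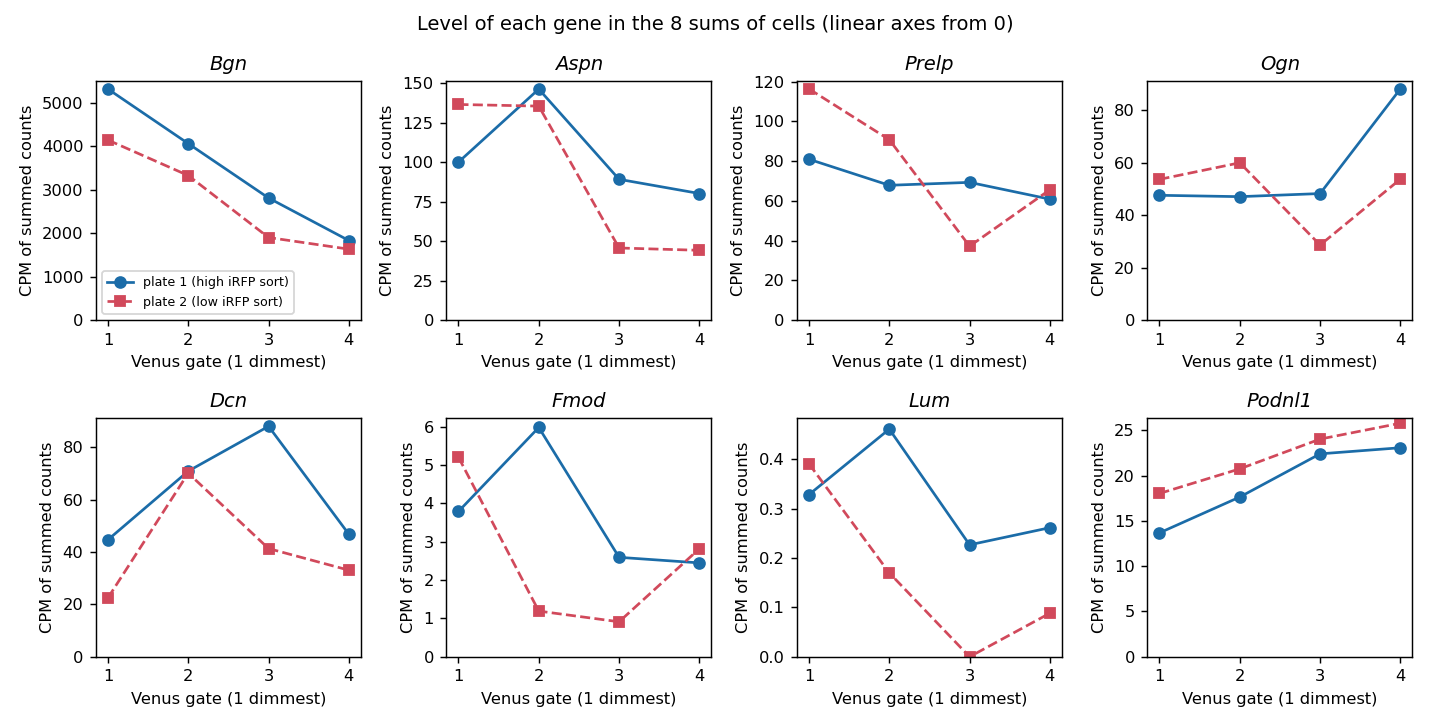
CPM in the summed cells of each Venus gate (1 dimmest, 4 brightest) for the 7 genes and Podnl1, on linear axes that start at 0 and differ between panels. Circles are plate 1 and squares plate 2, 1 point per sum; Bgn was lower at each gate on both plates, Podnl1 was higher, and the others were uneven.

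The same order was seen in single cells. Bgn was detected in 761 of 762 cells, and its median per cell was 5216, 3671, 2557 and 1396 CPM over the gates of plate 1 and 3297, 2809, 1558 and 1151 CPM over those of plate 2. Medians by well column of plate 1 ran from 3959 to 6145 CPM in gate 1 and from 1207 to 1792 CPM in gate 4, without overlap. Those of plate 2 ran from 2044 to 4387 and from 978 to 1706 CPM, also without overlap. The ranges of neighbouring gates did overlap on both plates, gate 2 running from 2580 to 4913 CPM on plate 1 and from 1596 to 4164 CPM on plate 2. Within gates, Bgn was lower in cells with more G2/M transcripts (mean Spearman correlation -0.33 over 8 combinations of plate and gate, below 0 in each), and it was higher in cells with a larger mitochondrial share (0.20, above 0 in all 8). The median summed level of G2/M genes per cell was 833 and 874 CPM in gate 1 and 976 and 996 CPM in gate 4 of plates 1 and 2. Median mitochondrial shares were 9.77% and 7.24% in gate 1 and 8.68% and 7.02% in gate 4. The part of the mitochondrial share in the slope was not tested. Among the 380 cells with a cell cycle score at or below the median, the slope of Bgn was -0.46 ± 0.03 log2 per gate.

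**Figure D2:**
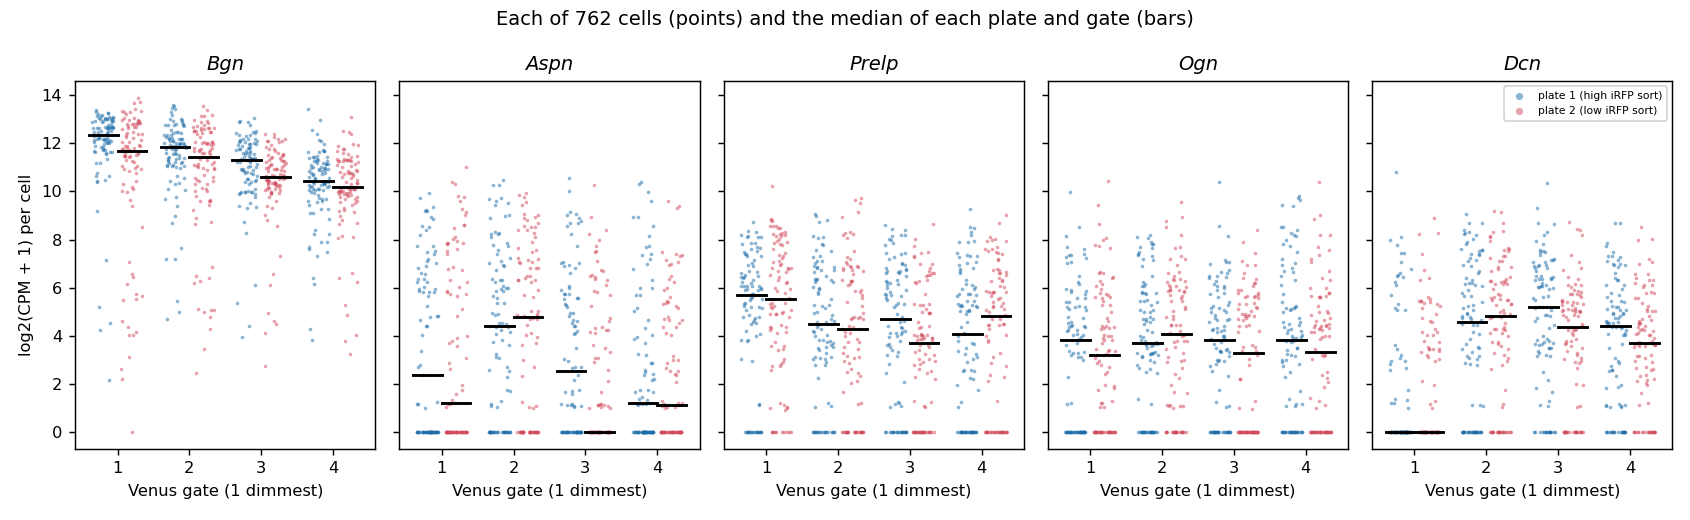
Level of 5 genes in each of 762 cells, as log2(CPM + 1), by Venus gate, with plate 1 on the left and plate 2 on the right of each gate and a bar at the median. Bgn was present in nearly every cell with a lower median in each brighter gate, while Aspn, Ogn and Dcn were at 0 in many cells and high in a few.

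Of the 6 relatives, Aspn alone fell toward bright Venus by the test over all genes (edgeR, adjusted p under 0.05), by -0.43 ± 0.09 log2 per gate with an adjusted p of 0.0222. In that fit 8.64% of 18430 genes were called lower and 6.78% higher, and among the 6828 genes with a mean of at least 20 CPM 16.2% were called lower, so 1 gene in 6 is close to the background. Aspn, which binds collagen and TGF-beta, stood at 99.97, 146, 89.1 and 80.1 CPM over the gates of plate 1. On plate 2 it stood at 136, 135, 45.6 and 44.2 CPM. Both plates were lower in gates 3 and 4 than in gates 1 and 2, with the steepest step between gates 2 and 3, and gate 2 was the highest of plate 1. The share of cells with any Aspn was alike in gates 1 and 4, at 54.7% and 54.2% on plate 1 and 54.7% and 55.3% on plate 2. It was not constant between them, at 71.9% in gate 2 and 63.5% in gate 3 of plate 1, and 67.0% and 49.0% on plate 2. In cells thinned to 500000 counts, gates 1 and 4 had 53.7% and 47.9% on plate 1 and 52.6% and 50.5% on plate 2. The slopes were -0.21 log2 per gate on plate 1 alone and -0.66 on plate 2 alone, where neither passed the test (adjusted p = 0.36 and 0.21, edgeR). The call was lost in 8 of 16 other settings, and the adjusted p over all 16 ran from 0.000679 to 0.360. In the 6 losses that kept both plates the slope was still -0.44 to -0.37 log2 per gate. Aspn, like Ogn, Omd and Ecm2, overlaps Cenpp, a kinetochore gene that rose by 0.25 ± 0.07 log2 per gate (edgeR, adjusted p = 0.0450), and since the use of strand in counting is not given in the sources used here, reads of these 4 genes may be mixed with those of Cenpp.

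Prelp, which binds collagen and heparan sulfate, had a slope of -0.26 ± 0.09 log2 per gate that did not pass the test (edgeR, adjusted p = 0.0904). Its level was 81.0, 67.9, 69.3 and 60.9 CPM over the gates of plate 1. On plate 2 it was 116, 90.8, 37.2 and 65.6 CPM. Gate 1 was the highest on both plates, but gate 3 was the lowest on plate 2 and above gate 2 on plate 1. It passed the test in 3 other settings. The adjusted p (edgeR) was 0.0102 when gate 3 was left out and 0.0469 in cells thinned to equal depth. With every gene that had a count it was 0.0164. The median of Prelp per cell was 50.8 CPM in gate 1 of plate 1 and 15.8 to 25.3 CPM in its other gates. On plate 2 it was 45.5 CPM in gate 1 and 12.1 to 27.7 CPM in the others. Over all cells of a plate, Prelp had a Spearman correlation with Venus of -0.15 on both plates. Aspn had -0.11 on plate 1 and -0.12 on plate 2. The same correlation was -0.53 and -0.30 for Bgn on plates 1 and 2. It had the opposite sign for Dcn, at 0.24 and 0.16, and was 0.03 and -0.05 for Ogn and 0.08 and 0.01 for Fmod. These values were not tested.

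Dcn, which binds collagen fibrils and TGF-beta, did not follow Bgn. Plate 1 had 44.7, 70.9, 88.0 and 46.8 CPM over the gates. In plate 2 the values were 22.5, 70.1, 41.3 and 33.1 CPM. Gate 1, where Bgn was highest, was the lowest for Dcn on both plates. The slope of 0.05 ± 0.07 log2 per gate did not pass the test (edgeR, adjusted p = 0.719). On plate 1 the highest cell of gate 1 had 1804 CPM of Dcn, while the 95 cells had a mean of 41.2 CPM and a median of 0. The level of that sum, and the slope in part, thus leaned on 1 cell. In cells thinned to 500000 counts, Dcn was detected in 34.7% and 45.3% of the cells of gate 1 on plates 1 and 2, and in 68.8% to 84.2% of the cells of the other gates (35.8%, 46.3% and 71.9% to 84.4% without thinning). When gate 1 was left out the slope was -0.45 ± 0.11 log2 per gate (edgeR, adjusted p = 0.0559).

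Ogn, which regulates the thickness of collagen fibrils, also showed no common order over the gates. It stood at 47.6, 47.1, 48.3 and 88.2 CPM on plate 1 and at 53.7, 60.0, 28.6 and 53.8 CPM on plate 2. Gate 4 stood apart as the highest on plate 1, whereas on plate 2 it equalled gate 1 to within counting error. The slope over both plates was 0.07 ± 0.08 log2 per gate (edgeR, adjusted p = 0.646).

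The keratan sulfate carriers Fmod and Lum were scarce. Fmod was detected in 77 cells, and 8 cells held 50% of its summed CPM. It stood at 3.79, 5.98, 2.59 and 2.45 CPM on plate 1 and at 5.20, 1.19, 0.912 and 2.82 CPM on plate 2, with a slope of -0.35 ± 0.19 log2 per gate (edgeR, adjusted p = 0.271). Lum had 154 counts in 26 cells. Its level was 0.329, 0.462, 0.227 and 0.262 CPM on plate 1 and 0.391, 0.170, 0 and 0.088 CPM on plate 2, where the 0 counts of gate 3 set a floor of 0.0346 CPM, the level of 3 counts. The slope of Lum was -0.61 ± 0.32 log2 per gate (edgeR, adjusted p = 0.249). Both slopes lay within 1 SE of that of Bgn and within 2 SE of 0, so these data tell them apart from neither.

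Outside the 7 genes, Podnl1, a more distant member of the family, rose toward bright Venus. On plate 1 it stood at 13.7, 17.6, 22.4 and 23.1 CPM, and on plate 2 at 18.0, 20.7, 24.0 and 25.8 CPM. Every step was upward on both plates. The slope was 0.20 ± 0.03 log2 per gate (edgeR, adjusted p = 0.0058). The call was lost without gate 1 (edgeR, adjusted p = 0.0880) and without gate 4 (0.0525). It was also lost on each plate alone, where the slope was 0.24 log2 per gate on plate 1 and 0.17 on plate 2. It overlaps the gene Cc2d1a, and reads of the pair cannot be told apart if strand was not used. It was the only edgeR call among the 6 other family genes tested, and 1 in 6 is close to the 15.4% of all genes called in either direction. Tsku, a secreted inhibitor of several signalling ligands, had 0.08 ± 0.03 log2 per gate (edgeR, adjusted p = 0.130), and Omd, which binds mineral and collagen, had 0.00 ± 0.04.

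**Figure D3:**
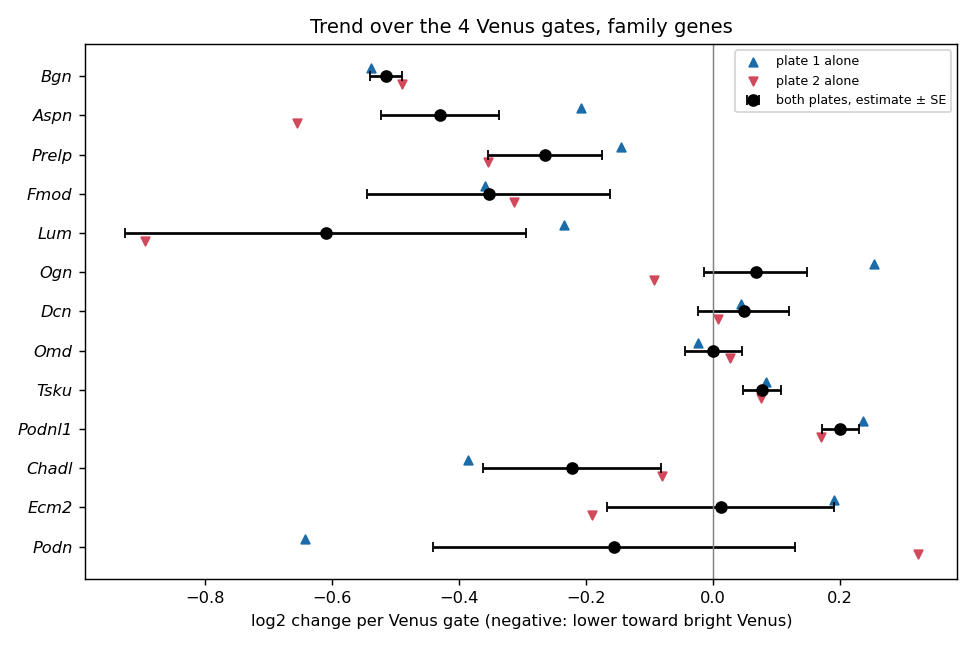
Slope over the 4 Venus gates for 13 genes of the family, in log2 per gate. Black points with bars are the fit over both plates with its SE and triangles are the plates alone; Bgn, Aspn, Prelp, Fmod, Lum and Chadl lie below 0 and Podnl1, Tsku and Dcn above 0 on both plates, while Ogn, Omd, Ecm2 and Podn lie on opposite sides of 0.

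Inside a gate, cells can still be split by their own Venus signal. In each well column of a gate the cells above the median Venus were compared with those below it, a median Venus difference of 0.63 log2 (0.38 to 0.90 over 8 combinations of plate and gate) against 1.70 log2 for 1 step between gates. None of 14838 genes was called by edgeR (0%), 729 had an unadjusted p under 0.05 (4.91%), and DESeq2 called 1. Bgn differed by -0.12 ± 0.08 log2, brighter minus dimmer, with a 95% interval of -0.32 to 0.08 from 7 degrees of freedom, and was lower in the brighter cells of 7 of the 8 combinations (edgeR, adjusted p = 0.978). Per log2 of Venus this was -0.19, with an interval of -0.50 to 0.13 that includes the -0.30 seen between gates. Single cells of the same 8 combinations were less uniform, with a mean Spearman correlation of Bgn with Venus of -0.08 that was above 0 in 3 of them. Aspn differed by -0.37 ± 0.23 log2 (95% interval -0.91 to 0.16) and was lower in 5 of 8. Prelp differed by -0.17 ± 0.12 log2 (95% interval -0.45 to 0.12), and was lower in 6 of 8. For Dcn the difference was -0.12 ± 0.18, for Ogn 0.07 ± 0.24, for Fmod 0.67 ± 0.73 and for Podnl1 0.10 ± 0.07 log2. None of the 11 family genes tested was called in this split, for which Lum was too scarce to be tested, and the intervals of Bgn, Aspn and Prelp also hold the size expected from their slopes between gates (-0.19, -0.16 and -0.10 log2 over this Venus difference).

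**Figure D4:**
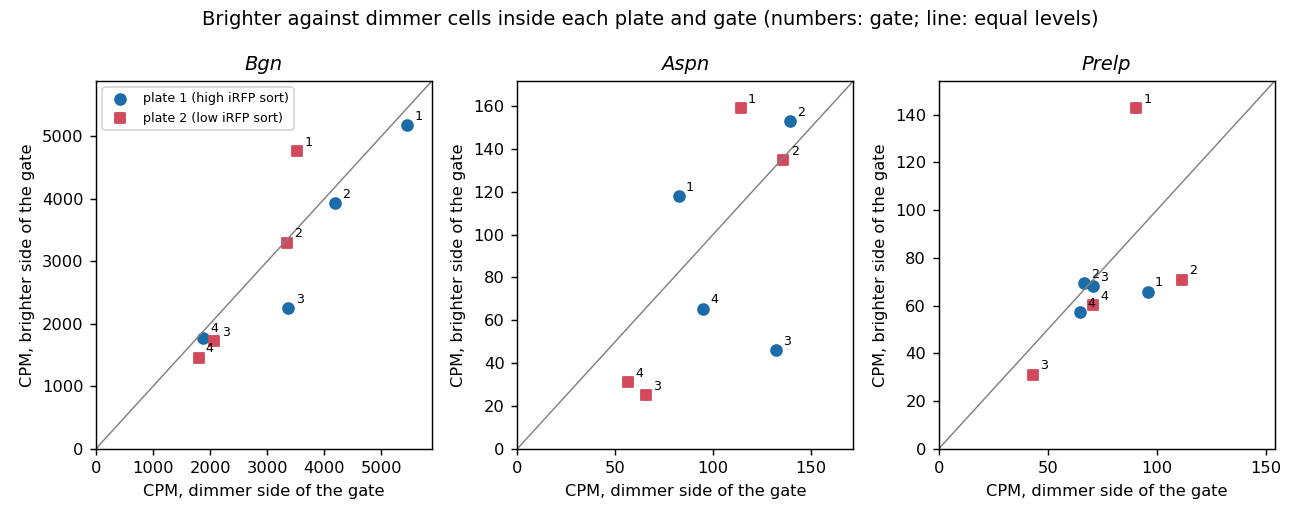
Level of Bgn, Aspn and Prelp in the brighter cells (vertical axis, CPM) against the dimmer cells (horizontal axis, CPM) of the same plate and gate, with numbers naming the gate and a line at equal levels. Of the 8 points of Bgn, 7 lie below the line, plate 2 gate 1 being above it; the points of Aspn lie on both sides.

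Between the plates, 6 of the 7 genes were higher on plate 1, the high H2B-iRFP sort. The share of all genes that were higher on plate 1 was not computed, so this count has no background. Bgn stood at 3498 CPM on plate 1 and 2724 on plate 2, a ratio of 1.28 (95% interval 1.28 to 1.29), and was higher on plate 1 in all 4 gates. Dcn was also higher in all 4 gates, at 63.4 against 41.5 CPM (ratio 1.53, 1.49 to 1.56). The ratios were 1.17 for Aspn, 1.18 for Ogn, 1.49 for Fmod and 2.02 (1.43 to 2.89) for Lum. Of these, Aspn and Lum were higher on plate 1 in 3 of 4 gates, and Ogn and Fmod in 2. Prelp was the exception at 69.7 against 76.5 CPM (ratio 0.911, 0.895 to 0.928). Outside the 7 genes, the ratio was 1.02 for Omd, 0.941 for Tsku and 0.867 for Podnl1. At low counts it was 0.688 for Chadl, 1.21 for Ecm2 and 1.38 for Podn. With 1 plate for each sort there is no replicate check of these ratios.

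Aspn, Ogn, Dcn and Prelp were concentrated in few cells. The 76 cells highest in Aspn held 69.9% of its summed CPM, and the same share was 65.2% for Ogn, 58.2% for Dcn and 48.7% for Prelp. The 6045 genes with a mean of 20 to 200 CPM had a median share of 20.6% and a 90th percentile of 26.1%, and from 0.397% (Aspn) to 1.14% (Prelp) of them were as concentrated. Bgn was spread more evenly than these 4, at 28.6%, which was still above that 90th percentile. Its mean per cell of 3122 CPM lay far above the 20 to 200 CPM of those genes. For Aspn and for Ogn, 41 cells held 50% of the total, so their levels in a sum of 94 to 96 cells rest on few cells. The share of cells with at least 100 CPM of Aspn was 23.2%, 28.1%, 18.8% and 15.6% over the gates of plate 1 and 26.3%, 33.0%, 11.5% and 11.7% over those of plate 2. At that level 402 cells held none of the 4 genes, 223 held 1, 96 held 2, 35 held 3 and 6 held all 4.

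Within gates, Aspn varied with both Ogn and Bgn. Spearman correlations across cells were averaged over the 8 combinations of plate and gate, and they describe cells that share libraries and depth. Aspn and Ogn had the closest relation, at 0.51 on average (0.50 on plate 1, 0.51 on plate 2). Bgn and Aspn followed at 0.45 (0.49 and 0.41), and Ogn and its neighbour Omd at 0.42. Prelp was closest to Fmod, its neighbour, at 0.31, and Bgn had 0.26 with Ogn, 0.24 with Fmod and 0.22 with Prelp. Dcn stood aside, with averages of -0.02 to 0.12 with the others, and 0.17 with Bgn on plate 1 against -0.04 on plate 2. For scale, the middle 95% of 6825 genes had correlations of -0.31 to 0.28 with Bgn, and of -0.17 to 0.17 with Dcn.

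**Figure D5:**
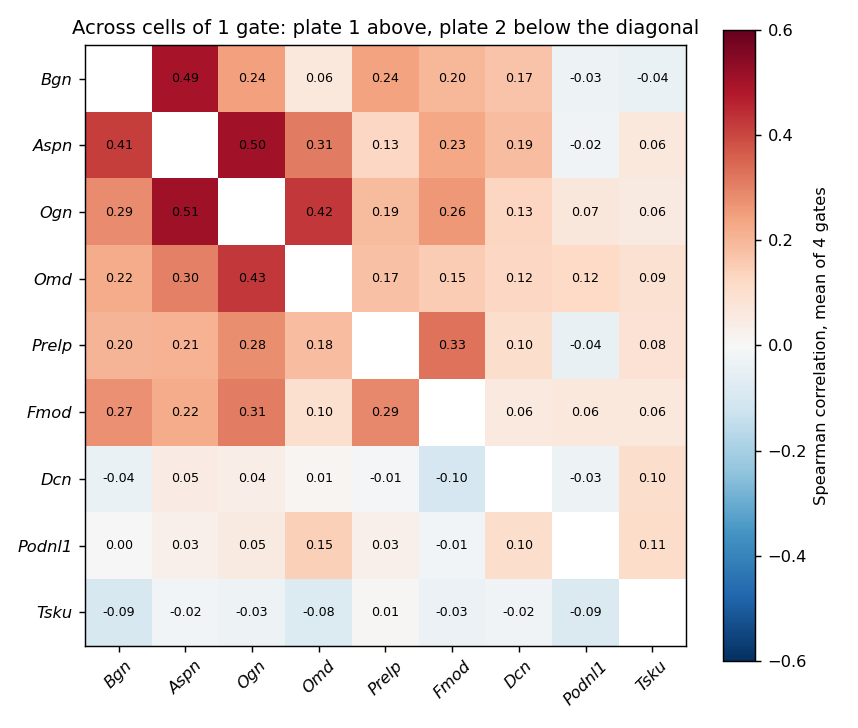
Spearman correlation between 9 genes of the family across cells of the same gate, averaged over 4 gates, with plate 1 above the diagonal and plate 2 below it. Aspn with Ogn, Aspn with Bgn and Ogn with Omd hold the 3 highest values on each plate, and Dcn is near 0 with most genes, more so on plate 2.

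The 10 genes most like Bgn across cells were, in order, Fstl1, a secreted glycoprotein (0.65), Ptn, a heparin-binding growth factor (0.58), Fbln2, a matrix fibulin (0.57), Col1a2 (0.55) and Col1a1 (0.55), the chains of type I collagen, Loxl1, a crosslinking enzyme (0.52), Marcks (0.51), Serpinf1 (0.50), Ttyh3 (0.49) and App (0.49). Over the gates, Fstl1 fell by 0.30 ± 0.02 and Marcks by 0.36 ± 0.03 log2 per gate, while Col1a2 fell by only 0.07 ± 0.01 and App rose by 0.08 ± 0.01 (edgeR, adjusted p = 0.00073, 0.00073, 0.0145 and 0.0103). Likeness across cells of a gate thus did not come with a like slope over gates for every gene. The 5 genes most opposed to Bgn were S100a6 (-0.54), the glycolytic enzymes Pgk1 (-0.54) and Pkm (-0.51), the redox protein Txn1 (-0.53) and Taldo1 of the pentose phosphate pathway (-0.50). Each of these 5 rose over the gates, by 0.10 to 0.14 log2 per gate (edgeR, adjusted p of 0.0013 to 0.0102).

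The other genes had partners of their own. Aspn was closest to Il11ra1, a cytokine receptor chain (0.60), followed by Fstl1, Ogn, Marcksl1 and Cst3. Ogn was closest to Lox, the collagen crosslinking enzyme (0.54), then Aspn, Col11a1, Il11ra1 and Lpl. Dcn was closest to Col3a1, the chain of type III collagen (0.44), then Cd302, Sema3c, Ctsd and Ramp2. Prelp reached at most 0.32, with Tmem119, followed by Efemp1, Anxa5, Itgb5 and Acta2. Aspn also shared with Bgn a negative relation to G2/M transcripts (-0.32). It was weaker for Ogn, Dcn and Fmod, at -0.11 each and above 0 in 1 of 8 combinations, while that of Prelp was 0.06.

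Among collagens and other matrix proteins that these proteoglycans bind, 8 of 16 genes (50%) fell and 2 (12.5%) rose over the gates, with a median of -0.08 log2 per gate against 0.00 over all genes tested. The shares called over all genes, to be read beside this and each list that follows, were 8.64% lower and 6.78% higher, and among genes of at least 20 CPM 16.2% lower and 11.9% higher. No difference between a list and these shares was tested. The fibronectin gene Fn1 went from 5866 ± 291 CPM in gate 1 to 3603 ± 43.2 in gate 4 (SD, 2 plates; -0.26 ± 0.02 log2 per gate, edgeR adjusted p = 0.00088). Tnc, an adhesion-modulating tenascin, fell by 0.38 ± 0.04 and Eln, elastin, by 0.26 ± 0.05 (edgeR, adjusted p = 0.0020 and 0.0112). The fibril-associated Tnxb rose by 0.36 ± 0.04, from 9.13 ± 0.329 to 21.1 ± 0.998 CPM (edgeR, adjusted p = 0.0034). The other rise, of Col14a1, was at 0.110 to 0.532 CPM.

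Proteases that cut these proteoglycans, with their inhibitors, had 6 of 10 genes lower (60%, against 8.64% of all genes) and 1 higher (10%, against 6.78%), with a median of -0.07. The largest fall was that of Adamts4, which cleaves large proteoglycans and biglycan, from 9.50 ± 2.13 CPM in gate 1 to 1.63 ± 0.559 in gate 4 (-0.88 ± 0.09 log2 per gate, edgeR adjusted p = 0.0021). Mmp14 fell by 0.28 ± 0.02 and Bmp1, which removes the propeptide of biglycan, by 0.23 ± 0.03 (edgeR, adjusted p = 0.00018 and 0.0026), while the inhibitor Timp1 rose by 0.12 ± 0.03 (0.0218). Of the TGF-beta ligands, receptors and binding proteins, 7 of 16 fell (43.8%, against 8.64% of all genes) and 2 rose (12.5%, against 6.78%), with a median of -0.10. Ltbp2, which anchors in elastic fibres, fell by 0.32 ± 0.05, Smad7, an inhibitor of the pathway, by 0.20 ± 0.04 and Ltbp4 by 0.19 ± 0.03, while the ligand gene Tgfb2, at 1.10 to 2.62 CPM, rose by 0.35 ± 0.07 and Ltbp1 by 0.14 ± 0.03 (edgeR, adjusted p from 0.0076 to 0.0166).

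Of 23 enzymes and transporters for the linker and the chondroitin or dermatan sulfate chains, 4 fell (17.4%) and 2 rose (8.70%), near the 16.2% and 11.9% of genes of at least 20 CPM, with a median of -0.01. Those that fell included Papss1, which makes the sulfate donor (-0.19 ± 0.02), B4galt7 of the linker (-0.15 ± 0.04), and Chsy1 of chain elongation (-0.12 ± 0.03), and those that rose were the sulfate transporter gene Slc26a2 (0.15 ± 0.02) and Ugdh, which makes the glucuronate donor (0.09 ± 0.02; edgeR, adjusted p from 0.0016 to 0.0413). edgeR called none of 7 keratan sulfate enzymes, where 1 had an unadjusted p under 0.05 and DESeq2 called 1. Of 12 receptors reported for these proteoglycans, 3 fell (25%, against 8.64% of all genes and 16.2% of those of at least 20 CPM), Egfr by 0.16 ± 0.04, Lrp1 by 0.11 ± 0.02 and Lrp6 by 0.08 ± 0.02 (edgeR, adjusted p = 0.0223, 0.0264 and 0.0370). Among 15 proteoglycans outside the family 3 fell (20%) and 1 rose (6.67%), near the 16.2% and 11.9% of genes of at least 20 CPM. Sdc3, a cell surface syndecan, went from 11.7 ± 4.20 CPM in gate 1 to 0.464 ± 0.139 in gate 4 (-1.42 ± 0.09 log2 per gate, edgeR adjusted p = 0.00048). Agrn fell by 0.30 ± 0.03 and Vcan, the large matrix proteoglycan, by 0.15 ± 0.02, while Sdc2 rose by 0.10 ± 0.02 (edgeR, adjusted p = 0.0026, 0.0025 and 0.0078). Beside these counts, 12 of 42 S phase genes (28.6%) rose by the same edgeR test and 0 fell (1 was lower at an unadjusted p under 0.05). Of 52 G2/M genes, 7 rose (13.5%) and 1 fell. The shares called higher were 6.78% of all genes and 11.9% of those of at least 20 CPM. The part of the S phase and G2/M genes in the changes of the matrix lists was not tested.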

How the data were processed

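Values in the authors' table were unnormalized counts of reads for each gene in each cell. STAR 2.7.11a, SAMtools, bedtools, HTSeq and the builds GRCm39 and mm39 are listed in the submitters' processing notes. The authors' use of strand, annotation and molecular identifiers are not given in the sources used here. Venus, H2B-iRFP and scatter intensity per cell came from the deposited sorting record and were joined by plate and well. Features without a symbol, 1.07% of counts, stayed in the fits. Cells needed at least 1000 genes, 0.1 of the plate's median depth and at most 25% mitochondrial counts.

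Counts were summed per plate and gate. edgeR 4.0.16 (R 4.3.3; filterByExpr, TMM, quasi-likelihood test) was fitted with gate and plate as factors, plate being a block because the labels give each sample as 1 plate, and Benjamini-Hochberg adjustment over all 18430 genes. The slope was the linear contrast over gates. CPM is per 1000000 counts of a sum or cell, and length was the union of exons in GENCODE M21. The within-gate test used 16 sums in 8 blocks. The scripts were tested on simulated counts. DESeq2 1.42.0 and limma 3.58.1 served as alternatives, along with other filters, equal depth, low cycle score and leaving out each gate or plate. Plate ratios have exact binomial intervals. Promoters are RefSeq's (GRCm38.p6); no coordinates were taken into the files' build.

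The 7 genes and all lists were chosen with earlier results of these data known. Genes were named by rule: the 7, other family genes by level, up to 3 rises and 3 falls of the largest size per list among those called, and the 10 highest and 5 lowest correlations with Bgn (5 highest for the others found in at least 50% of cells) among genes of at least 20 CPM. Cenpp and Cc2d1a were named for their overlap after values were seen.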

Additional observations from a re-analysis of the deposited data

Results flagged for a closer look

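The slope of Ogn had opposite signs on the plates, but that of plate 2 lay within 1 SE of 0, so its sign is not settled. It was 0.25 ± 0.08 log2 per gate on plate 1 alone, the high H2B-iRFP sort. On plate 2 alone, the low sort, the slope of Ogn was -0.093 ± 0.14, a difference of 0.35. On plate 1 the slope rested on gate 4, at 88.2 CPM against 47.1 to 48.3 CPM in the other gates, where 20.8% of cells had at least 100 CPM against 8.33% to 15.6%. On plate 2 that share was 6.25% to 11.7%. With 1 plate for each sort, this difference was not tested.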

How the results depend on the processing

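The slope of Bgn kept its direction under all 16 alternatives, from -0.57 (without gate 1) to -0.46 (cells of low cycle score). The number of Bgn's 6 relatives called, 1 as reported, was 0 with an additive linear model over gates, limma on mean CPM, cells of low cycle score, no plate block, without gate 2 and without gate 4; it was 2 (Aspn and Prelp) with every gene that had a count, with thinned cells and without gate 3; and it was 0 when either plate was left out. For Aspn the adjusted p of those losses was 0.0554, 0.0749, 0.0542, 0.0641 (no replicate block, edgeR), 0.0583 and 0.153, at slopes of -0.44, -0.40, -0.40, -0.40, -0.37 and -0.43. The cause was not tested, except that settings with a gate or plate left out use fewer sums. Slopes changed sign for Dcn without gate 1 (-0.45) and for Ogn without gate 4 (-0.21), and for Ogn ran from -0.093 without plate 1 to 0.25 without plate 2. The within-gate difference changed sign for Dcn without plate 1 (0.31, against -0.54 without plate 2) and for Ogn with Venus divided by forward scatter (-0.36) or a split that ignored well columns (-0.084). Genes called for the slope, 2843 as reported, numbered 1858 with the additive linear model, 1828 with limma, 1171 in cells of low cycle score, 1683 without the block, 1139 without gate 1, 358 without gate 4, and 4 and 264 without plate 1 and plate 2. Within gates, none as reported, DESeq2 called 1 and the fit with every counted gene 3. The ratio of Bgn to the next gene was 28.1 with the longest transcript in place of all exons. The median correlation over pairs of the 7 genes, Lum left out, was 0.23, with 0.15 for Pearson's correlation of log2(CPM + 1) and 0.20 to 0.22 when 1 plate was left out. Fmod and Lum rest on 77 and 26 cells with a count.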

Other observations

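Some cells nearly lacked Bgn. In 58 of 762 cells (7.61%) it was under 100 CPM, against a median of 2418 CPM over all cells. There were 15 such cells on plate 1, at 3 or 4 in each gate, and 43 on plate 2, at 16, 12, 7 and 8 from gate 1 to gate 4. These cells matched the others in depth, with a median of 842218 counts and 11142 genes against 843264 and 11094. Their median was 6254 CPM for Col1a1 against 8385 in the others, 740 against 1224 CPM for Fstl1 and 4728 against 3729 CPM for Vim, the fibroblast intermediate filament. Relatives of Bgn were not missing from them: 12 of the 58 had at least 100 CPM of Aspn (20.7% against 21.0% of the others), 13 of Ogn (22.4% against 11.1%), 10 of Dcn (17.2% against 14.5%) and 10 of Prelp (17.2% against 24.3%). Their median was 36.5 CPM for Dcn against 11.6 in the others, 15.2 against 11.9 for Ogn, 3.59 against 2.40 for Aspn and 22.3 against 25.6 for Prelp. With 43 of the 58 cells on plate 2, these comparisons also hold differences between the plates. The cells were picked by their Bgn level, so these values carry no test.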
